A study of Homo sapiens with 2 samples.

Results

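The genes described are 9 apolipoproteins, APOA1, APOA2, APOA4, APOB, APOC1, APOC3, APOE, APOH and APOM, and MTTP, which encodes the large subunit of the microsomal triglyceride transfer protein. They were taken by symbol, with no cutoff on their values but with earlier results of these data known. They are 10 of the 19927 genes in the count table. Poly(A)-selected mRNA came from Huh7, a cell line established from a human hepatocellular carcinoma, grown in serum-containing medium. One culture was kept for 48 h with DMSO, the solvent control, and one for 48 h with homochlorcyclizine dihydrochloride, an antihistamine. The sources used here give no dose. Each group is 1 library, so the values compare these 2 libraries, without a replicate check and without a p-value.

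Apolipoproteins are the protein part of lipoprotein particles, which carry lipids in plasma. In hepatocytes, MTTP loads lipid onto the single large APOB chain of a nascent very-low-density particle in the endoplasmic reticulum. The small exchangeable apolipoproteins move between particles, where they serve as receptor ligands (APOE), as structural and enzyme-activating proteins of high-density particles (APOA1, APOA2) or as modifiers of lipolysis and clearance (APOC1, APOC3).

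The DMSO library held 38133894 counts and the homochlorcyclizine library 40791119. Counts were scaled by TMM, which sets library sizes so that most genes have a ratio near 1, and are given as CPM, counts on a common library size. All 10 hepatocyte and hepatoma markers were detected and none was 2-fold different, with albumin (ALB) at 5244 CPM with DMSO and 5059 CPM with homochlorcyclizine. Markers of other cells were partly present. At least 1 CPM on average was reached by 7 of 10 enterocyte markers, 3 of 10 macrophage markers, 4 of 10 fibroblast markers and 1 of 10 endothelial markers. The macrophage list summed to 465 CPM with DMSO and 547 CPM with homochlorcyclizine, of which lysozyme (LYZ) made up 446 and 527 CPM and CD68 13.9 and 17.0 CPM, while CD163 and MRC1 had 0 counts in both libraries. The fibroblast list summed to 41.7 and 43.0 CPM, with LUM at 21.3 and 27.3 CPM and COL1A1 at 8.40 and 8.92 CPM, while COL1A2, THY1 and LRAT had 0 counts in both. The endothelial list summed to 12.6 and 6.14 CPM, with PECAM1 2-fold lower at 11.7 and 5.63 CPM, while KDR, TEK, CLEC4G, EMCN and ERG had 0 counts in both.

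Of the 10 genes, all had a mean of at least 1 CPM. APOA4 and APOE were at least 2-fold higher with homochlorcyclizine, and none was 2-fold lower. Among all 12353 genes at that level, the same rule (2-fold or more, with the counting interval of the ratio excluding 1) called 5.81% higher and 5.10% lower. Of the other 8 genes, 7 differed by less than 1.5-fold and APOH was lower by more. Of all genes tested, 71.8% differed by less than 1.5-fold. The median log2 ratio of the 10 genes was 0.26, beside -0.01 over all genes tested. The median size of the log2 ratio, whatever its sign, was 0.34 both for these genes and for all genes tested. Intervals of ratios are exact 95% counting intervals, conditional on the summed count. They cover counting error only, since reads copied by PCR do not count separate molecules and each treatment has 1 culture. In bulk RNA, more cells that express a gene and more of its RNA per cell cannot be told apart.

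**Figure D1:**
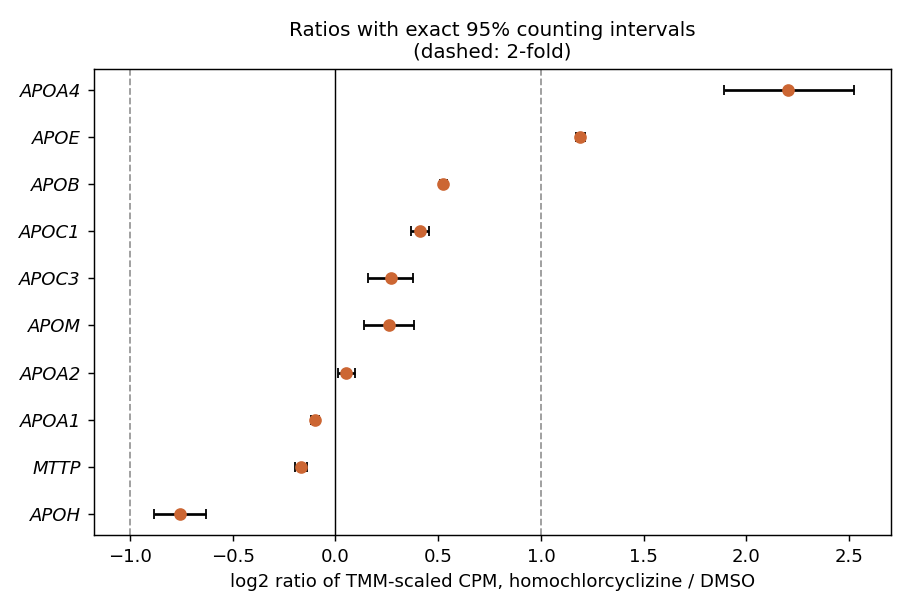
Ratio of TMM-scaled CPM, homochlorcyclizine over DMSO, on a log2 axis for each of the 10 genes, with exact 95% counting intervals (bars) and 2-fold marked by dashed lines. APOA4 and APOE lie beyond 2-fold, and APOH, MTTP and APOA1 lie below 0.

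The level per gene length was read from the deposited FPKM, counts scaled to gene length and library total. Among the 10 genes, APOA1 was the most abundant in both libraries, at 1302 FPKM with DMSO and 1210 FPKM with homochlorcyclizine. APOE was next with DMSO at 483 FPKM, nearly level with APOA2 at 481 FPKM. With homochlorcyclizine APOE stood at 1099 FPKM, well above APOA2 at 497 FPKM and close to APOA1. APOC1 followed at 324 and 429 FPKM. MTTP was above APOB with DMSO, at 131 against 100.2 FPKM, and below it with homochlorcyclizine, at 116 against 144 FPKM. This was the single exchange of places among the 10 genes. APOC3 (59.1 and 70.8 FPKM), APOM (35.3 and 42.2 FPKM), APOH (30.4 and 17.9 FPKM) and APOA4 (1.80 and 8.25 FPKM) came last, in this order in both libraries.

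**Figure D2:**
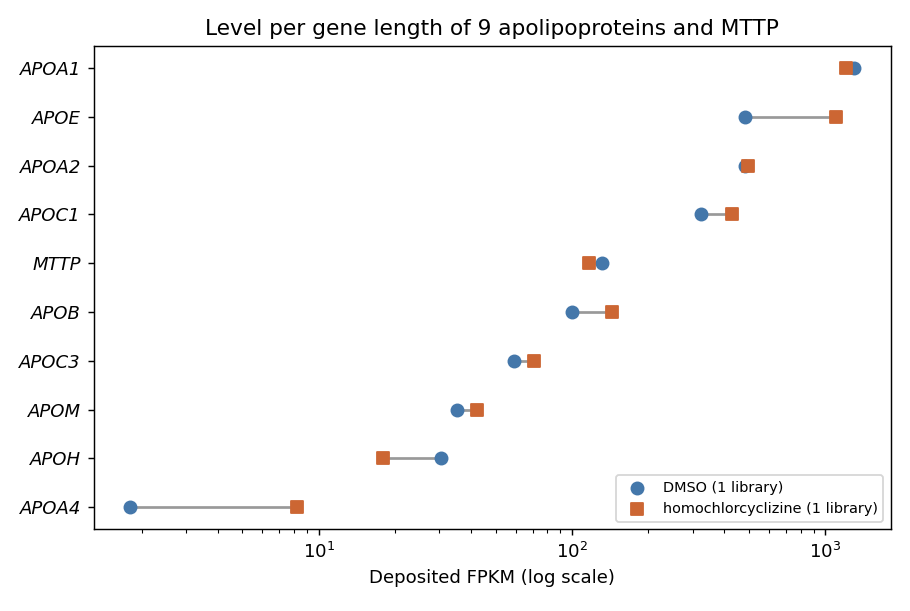
Deposited FPKM of the 10 genes (log axis) in the DMSO library (circles) and the homochlorcyclizine library (squares), ordered by the DMSO level. The distance is widest for APOA4 (1.80 to 8.25 FPKM), and APOE comes close to APOA1 (1099 against 1210 FPKM) in the homochlorcyclizine library.

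The 10 genes together took 0.676% of the summed FPKM with DMSO and 0.853% with homochlorcyclizine. Of raw counts, which are not set per length, they took 0.432% and 0.559%. APOE made up most of this difference. The summed level was 686 FPKM higher, of which APOE gave 616 FPKM, while APOC1 gave 104.8, APOB 43.5 and APOA1 -91.8 FPKM. Without APOE the other 9 genes summed to 2465 FPKM with DMSO and 2536 FPKM with homochlorcyclizine. Within the 10 genes the share of APOE was 16.4% with DMSO and 30.2% with homochlorcyclizine, and that of APOA1 was 44.2% and 33.3%.

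APOE is the ligand through which remnant particles are taken up by receptors of the LDL receptor family. It had 22054 counts with DMSO and 53670 with homochlorcyclizine, or 577 and 1318 CPM. The ratio was 2.28 (2.25 to 2.32). Of all genes tested, 3.77% had a log2 ratio at least as high. By FPKM, APOE ranked 124 among all genes with DMSO and 37 with homochlorcyclizine.

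APOA4 is made mainly by the intestine in humans and travels on chylomicrons and high-density particles. It had 101 counts with DMSO and 495 with homochlorcyclizine, or 2.64 CPM (2.15 to 3.21) and 12.2 CPM (11.1 to 13.3), with exact Poisson intervals. The ratio was 4.60 (3.71 to 5.76), and 0.51% of all genes tested had a log2 ratio at least as high. It was the least abundant of the 10 genes in both libraries. In the GENCODE annotation, 43.1% of the exon bases of APOA4 are shared with AP006216.3, an antisense gene that is not in the count table. The sources used here do not say whether counting used strand, so reads of the antisense gene cannot be told apart from those of APOA4.

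Because APOA4 is an intestinal gene, the enterocyte list was set beside it. Its 7 genes tested had a median log2 ratio of -0.39, and 5 of them had a ratio under 1. Over all genes tested, 48.9% had a ratio above 1. None was 2-fold higher, and LCT, the intestinal lactase, was lower at 7.47 against 33.1 CPM (here and below, the homochlorcyclizine value against the DMSO value). The intestinal transcription factor CDX2 (116 against 176 CPM) and the disaccharidase SI (11.2 against 20.7 CPM) were also below a ratio of 1, while the brush border protease MEP1A (179 against 125 CPM) and the cadherin CDH17 (574 against 432 CPM) were above it. With these 2, the 10 genes of the list summed to 1216 against 1136 CPM. CDX1 had 0 counts in both libraries and FABP2 had 0 and 2 counts. Their part in the APOA4 difference was not tested.

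The sequences before the starts of APOA4 and APOE, the 2 genes at least 2-fold higher, and of APOH, the gene with the lowest ratio, are printed side by side for comparison. They are the 250 bases before a RefSeq start on GRCh38.p14, 5′ to 3′ on the gene's strand. APOE has 3 starts in the table used, of which the first is printed. Capitals mark matches to any of 18 motifs searched on both strands.
APOA4, chr11:116823305-116823554, minus strand: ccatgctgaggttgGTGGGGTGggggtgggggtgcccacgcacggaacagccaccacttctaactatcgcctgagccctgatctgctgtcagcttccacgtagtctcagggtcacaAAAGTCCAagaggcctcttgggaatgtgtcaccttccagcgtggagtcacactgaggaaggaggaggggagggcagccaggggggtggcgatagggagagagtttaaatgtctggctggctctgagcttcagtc
APOE, chr19:44905546-44905795, plus strand: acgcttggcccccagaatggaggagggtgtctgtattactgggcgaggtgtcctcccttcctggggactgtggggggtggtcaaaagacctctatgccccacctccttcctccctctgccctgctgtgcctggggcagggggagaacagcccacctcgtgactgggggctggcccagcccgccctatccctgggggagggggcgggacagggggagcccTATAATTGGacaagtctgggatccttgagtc
APOH, chr17:66229416-66229665, minus strand: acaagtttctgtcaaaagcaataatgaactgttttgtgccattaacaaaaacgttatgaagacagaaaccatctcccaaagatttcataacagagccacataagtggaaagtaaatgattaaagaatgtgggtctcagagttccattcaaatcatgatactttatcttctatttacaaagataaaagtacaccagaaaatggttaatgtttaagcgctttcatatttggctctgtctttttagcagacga
The GC content of these stretches was 59.2% for APOA4, 64.8% for APOE and 33.2% for APOH, against a median of 58.0% over 35116 such regions.

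In APOA4 the capitals are AAAGTCCA, the core of the site of HNF4, a hepatocyte nuclear receptor, from 134 to 127 bases before the start, and the reverse complement of CACCCCAC, the core of the sterol regulatory element, from 236 to 229 bases before it. These motifs were found before 0.98% and 2.43% of all starts. In APOE the capitals join TATAA, 31 to 27 bases before the start and found before 18.9% of all starts, with an overlapping CCAAT box on the other strand, 27 to 23 bases before the start and found before 32.0% of all starts. The motifs AAAGTCCA and TATAA were added, and CACCCCAC was taken in place of a longer form that had no match, after these sequences were read. No motif of the 18 was found in the APOH stretch. A match is a description of letters and not of a bound site.

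The table of starts held 7 of the 10 genes, with 10 starts, and no entry for APOA1, APOB or APOC3. The second APOE start held no motif of the 18, and the third held CCAAT on the other strand, 202 to 198 bases before it. The second MTTP start held the nuclear receptor half-site AGGTCA on the other strand, 50 to 45 bases before it, a motif found before 12.1% of all starts, with CCAAT and TATAAA further upstream on that strand (TATAAA before 10.7% of all starts). APOA2 held the forkhead motif TGTTTAC on the other strand, 42 to 36 bases before its start (2.98% of all starts). No match was found at the 10 starts to CAAAGTCCA, the longer HNF4 site (0.32% of all starts), TGATGCAA, a C/EBP-ATF element (0.77%), TGACGTCA, the cAMP response element (1.65%), CACGTG, the E-box (6.34%), TTGCGCAA, a C/EBP site (0.13%), or TGTTTGC, another forkhead form (3.23%). The same held for the half-site AGGTCA repeated directly after 1 base or 4 bases, its inverted repeat with a spacer of 1 and its longer RORA form, which stand before at most 0.14% of all starts. No match says only that these letters are not in these windows.

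APOB is the scaffold of very-low-density and low-density particles, of which each particle holds 1 copy. It had 53970 counts with DMSO and 82783 with homochlorcyclizine, the most of the 10 genes, from an mRNA with an implied length of 14121 bases. At 1412 and 2034 CPM its ratio was 1.44 (1.42 to 1.46), under the 2-fold rule. MTTP, which lipidates APOB, was slightly below a ratio of 1. It had 19751 and 18730 counts, or 517 and 460 CPM, a ratio of 0.890 (0.872 to 0.908). Within a library, where library scaling plays no part, the FPKM ratio of APOB to MTTP was 0.764 with DMSO and 1.24 with homochlorcyclizine. The quotient was 1.62 (1.58 to 1.65), an interval that does not cover trends on gene length or GC. The log2 ratios of APOB and MTTP were 0.53 and -0.17. They were 0.38 and -0.18 with the length trend removed, and 0.42 and -0.12 with GC and length trends removed, so the gap was smaller.

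APOA1, the main protein of high-density particles and an activator of the cholesterol-esterifying enzyme LCAT, had 49560 counts with DMSO and 49278 with homochlorcyclizine. At 1297 and 1211 CPM its ratio was 0.933 (0.922 to 0.945). The ratio was above 1 (log2 ratio 0.06) once the trend on gene length was removed. It was below 1 (log2 ratio -0.10) with trends on both GC and length removed. Of the exon bases of APOA1, 8.64% are shared in GENCODE with APOA1-AS, an antisense gene that is not in the count table. APOA2, the second protein of these particles, had 8691 and 9605 counts (227 and 236 CPM), a ratio of 1.04 (1.01 to 1.07). APOM, which carries sphingosine 1-phosphate on high-density particles, had 1004 and 1281 counts (26.3 and 31.5 CPM), a ratio of 1.20 (1.10 to 1.30). APOA1, APOA2 and APOM thus all lay within 1.5-fold, as did 71.8% of all genes tested. The FPKM ratio of APOE to APOA1 was 0.371 with DMSO and 0.908 with homochlorcyclizine, a quotient of 2.45 (2.40 to 2.50).

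APOC1, which inhibits the transfer protein CETP and hinders particle uptake, had 7039 counts with DMSO and 9962 with homochlorcyclizine. At 184 and 245 CPM its ratio was 1.33 (1.29 to 1.37). APOC3, an inhibitor of lipoprotein lipase and of remnant clearance, had 1205 and 1546 counts (31.5 and 38.0 CPM), a ratio of 1.20 (1.12 to 1.30). Both were above 1 and under 2-fold. In the GENCODE annotation, 45.9% of the exon bases of APOC1 lie under a gene model of unproven status on the same strand, which is not in the count table.

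APOH, or beta-2-glycoprotein I, binds anionic phospholipids and is a plasma protein only loosely tied to lipoproteins. It had 1360 counts with DMSO and 858 with homochlorcyclizine, or 35.6 CPM (33.7 to 37.5) and 21.1 CPM (19.7 to 22.5). The ratio was 0.592 (0.543 to 0.646), the lowest of the 10 genes, and 9.13% of all genes tested had a log2 ratio as low or lower. APOH was the only one of these genes that was lower by more than 1.5-fold.

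**Figure D3:**
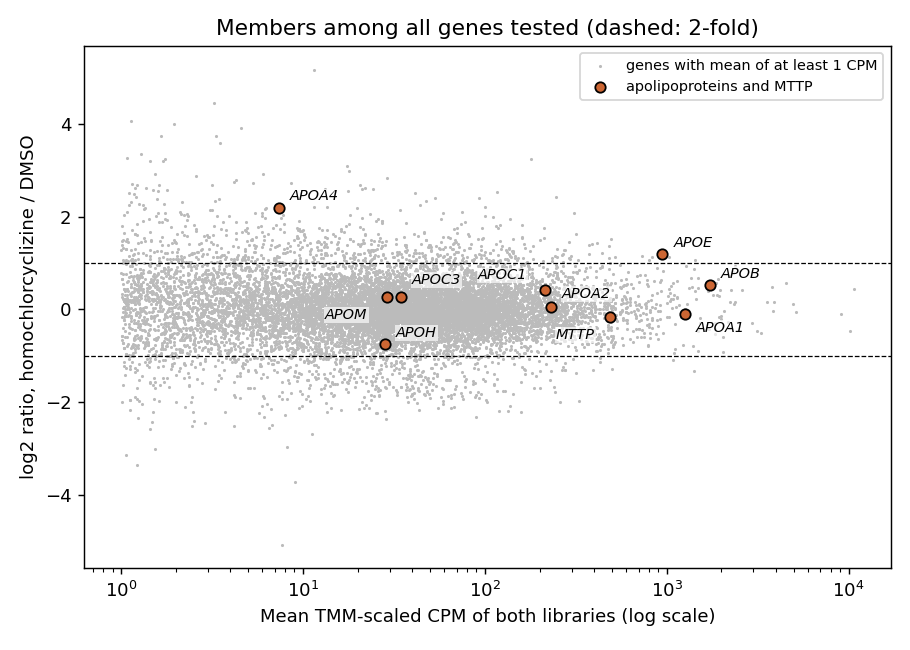
Log2 ratio, homochlorcyclizine over DMSO, against mean TMM-scaled CPM (log axis) for the 12353 genes tested (grey) and the 10 genes described (labelled), with 2-fold marked by dashed lines. APOE lies above 2-fold at a mean of 948 CPM and APOA4 at 7.40 CPM, with the others inside the 2-fold lines.

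Ordered by ratio, the genes ran APOA4, APOE, APOB, APOC1, APOC3, APOM, APOA2, APOA1, MTTP and APOH. This order depends on the processing. With the trend on gene length removed, APOB (log2 ratio 0.38) was below APOC1 (0.61), APOC3 (0.47) and APOM (0.44). With trends on GC and length removed, APOC1 (0.53) was again above APOB (0.42). Each of the 45 pairs was compared within the libraries, as the quotient of the pair's count ratios with a 95% interval on the log scale for counting error. The interval excluded 1 in 44 pairs. The exception was APOC3 and APOM, with a quotient of 1.01 (0.899 to 1.12). Between neighbours in the order the largest steps were APOA4 to APOE, at 2.01 (1.63 to 2.50), APOE to APOB, at 1.59 (1.56 to 1.62), and MTTP to APOH, at 1.503 (1.38 to 1.64). These steps exceed counting error, and whether they exceed the spread between cultures cannot be told from 1 library a group.

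Of the 10 genes, 5 lie in a pair of clusters (RefSeq, GRCh38.p14). On chromosome 11, APOA4 (116820700 to 116823304), APOC3 (116829907 to 116833072) and APOA1 (116835751 to 116837622) lie within 16.9 kb. Their ratios were 4.60, 1.20 and 0.933, and APOA4 was the only one of the 3 past 2-fold. APOA5, the fourth apolipoprotein there, had 25 and 38 counts, below 1 CPM on average, with a ratio of 1.43 (0.839 to 2.47). The 3 other tested genes within 100 kb, BUD13, ZPR1 and SIK3, had log2 ratios between -0.25 and 0.34.

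On chromosome 19, APOE (44905796 to 44909393) and APOC1 (44914325 to 44919346) lie 4.93 kb apart. Their quotient within the libraries was 1.72 (1.66 to 1.78), APOE having the higher ratio. APOC2, the activator of lipoprotein lipase in the same cluster, had a ratio of 1.07 (1.002 to 1.15), at 43.9 against 40.9 CPM, and APOC4 had 2 and 3 counts. TOMM40, which encodes a mitochondrial import pore and ends 2.11 kb before APOE, was lower, with a ratio of 0.541 (0.521 to 0.563), at 103 against 190 CPM. Of the 6 tested genes within 100 kb that are not among the 10, RELB, an NF-kB subunit 92.1 kb from APOE, was the one past 2-fold, at 2.51 (2.22 to 2.86).

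**Figure D4:**
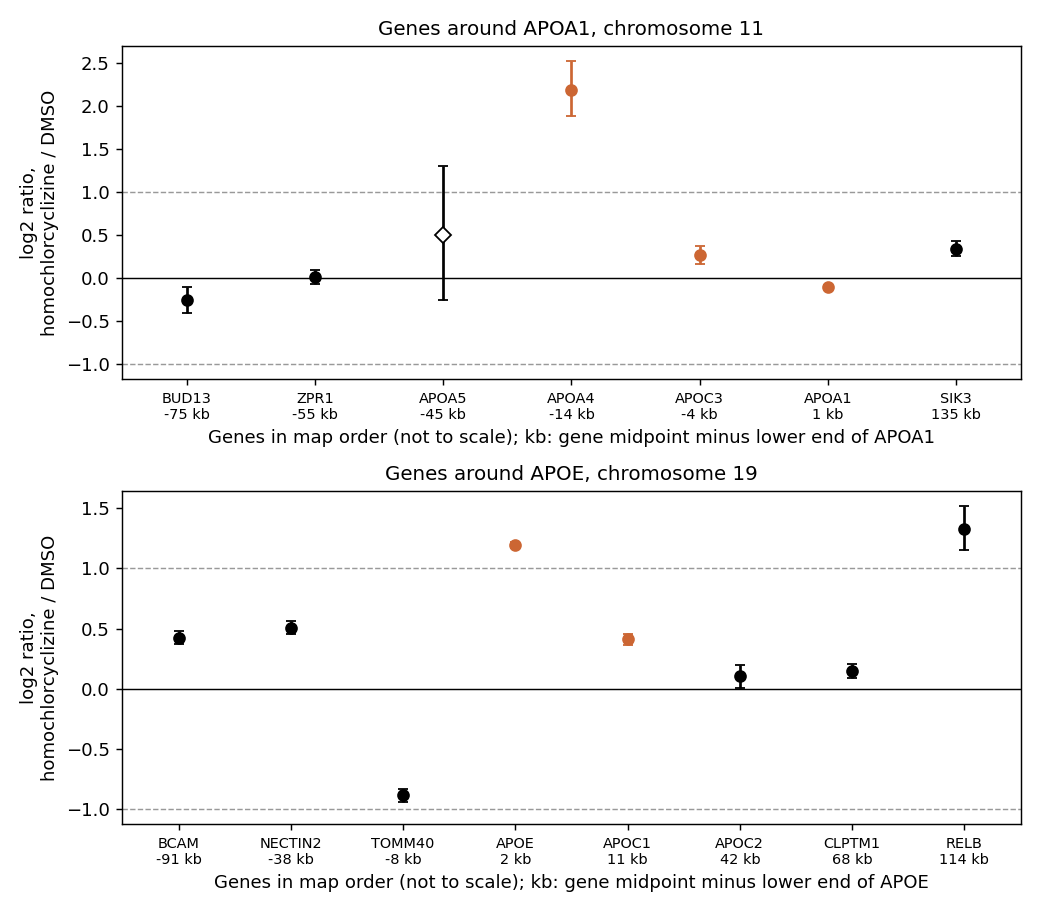
Log2 ratios with exact 95% counting intervals for genes within 100 kb of APOA1 (top) and APOE (bottom), in map order and not to scale. Orange points are among the 10 genes, the open diamond (APOA5) had a mean below 1 CPM, and APOC4 with 2 and 3 counts is not drawn. APOA4 (ratio 4.60) and APOE (ratio 2.28) stand above the genes next to them.

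The other genes lie singly. APOA2 is on chromosome 1 (161222292 to 161223628), APOB on chromosome 2 (21001429 to 21044073), MTTP on chromosome 4 (99564130 to 99623997), APOM on chromosome 6 (31652404 to 31658210) and APOH on chromosome 17 (66212033 to 66229415). Of APOM, 8.19% of the exon bases are shared with BAG6 on the opposite strand. Over the surroundings of all 10 genes, 34 further genes were tested, with a median log2 ratio of 0.01. RELB was the one called, where the same rule called 5.81% of all genes tested higher and 5.10% lower.

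Further genes of the pathway were read from lists by role, made with earlier results of these data known. Beside their counts, 5.81% of all genes tested were 2-fold higher and 5.10% were 2-fold lower. Genes that assemble and secrete APOB particles were mixed. Of 38 tested, 2 were 2-fold higher, 2 were 2-fold lower and the median log2 ratio was -0.07. The higher ones were LPIN1, a phosphatidate phosphatase of triglyceride synthesis (143 against 49.7 CPM), and PNPLA3, a lipid droplet acylhydrolase (116 against 46.7 CPM). The lower ones were HSP90B1, an endoplasmic reticulum chaperone (684 against 1470 CPM), and CIDEB, which helps lipidate the particles (37 against 76 counts). TM6SF2, also needed for their full lipidation, had a ratio of 0.536 (0.470 to 0.612), just under the 2-fold rule, at 8.84 against 16.5 CPM. P4HB, the small subunit that pairs with the MTTP product, had a ratio of 0.805 (0.794 to 0.816), and SAR1B, the GTPase that exports the particles in COPII vesicles, one of 0.929 (0.892 to 0.968).

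Of the receptors of lipoproteins and their regulators, 12 of 18 tested were above a ratio of 1, beside 48.9% of all genes tested. Among these 18, 4 were 2-fold higher, 1 was 2-fold lower and the median log2 ratio was 0.22. Among the higher ones were VLDLR (33.7 against 8.64 CPM), SORL1 (29.3 against 11.1 CPM) and LRP1 (695 against 271 CPM), each of them binding APOE, APOB or both. The syndecan SDC1, a heparan sulfate proteoglycan that captures remnants, was lower at 44.9 against 101 CPM.

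Of 13 tested plasma lipases, transfer proteins and their regulators, 1 was 2-fold higher and none was 2-fold lower, with a median of 0.29. The one called was LIPG, endothelial lipase, which acts on high-density particles, at 43.0 against 19.7 CPM. LIPC, hepatic lipase, had a ratio of 1.11 (1.06 to 1.17) and LCAT one of 1.22 (0.939 to 1.60). FURIN and CREB3L3 were each at 1.45. LPL and CETP had no reads, and a count of 0 still allows 3 counts, or 0.0785 CPM with DMSO and 0.0737 CPM with homochlorcyclizine. Of 8 tested genes of a list of lipid transporters, NPC1 was the one past 2-fold, at 2.04 (1.93 to 2.16), and the median was 0.50. The list mixes ABC efflux transporters with NPC1, NPC2, NPC1L1 and STARD3, which move cholesterol within or into cells. These had the highest log2 ratios, at 1.03, 0.92, 0.62 and 0.62. The tested ABC transporters lay between -0.17 and 0.39. ABCA1, which loads APOA1 with cholesterol and phospholipid, had a ratio of 1.13 (1.07 to 1.18), at 97.2 against 86.4 CPM.

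Among 45 tested transcription factors known to act on apolipoprotein genes, 6 (13.3%) were 2-fold higher, none was 2-fold lower and the median was 0.16. Over all genes tested, 5.81% were higher and 5.10% lower by that rule. The list was made with earlier results of these data known, so its count is a description only. RORA, an orphan nuclear receptor, was at 15.0 against 2.25 CPM, and the heme-binding repressors NR1D1 and NR1D2 were at 35.7 against 5.52 CPM and 94.7 against 38.4 CPM. NR0B2, a repressor induced by bile acids, was at 39.2 against 12.7 CPM. The forkhead factors FOXO1 and FOXO3 were the other two. HNF4A, the nuclear receptor on which many apolipoprotein genes depend in hepatocytes, had a ratio of 0.949 (0.926 to 0.972).

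Of 8 tested other apolipoproteins and lipoprotein-bound proteins, APOL6 was higher (42.0 against 15.1 CPM) and PON1, the paraoxonase of high-density particles, was lower (29 against 90 counts), with a median of -0.19. APOO, now known as a subunit of the mitochondrial MICOS complex, had a ratio of 0.584 (0.502 to 0.678) and APOL2 one of 1.47 (1.33 to 1.62). Of 28 tested other proteins that hepatocytes secrete, SERPINA3 was higher (71.0 against 27.3 CPM) and HP, haptoglobin, was lower (18 against 96 counts), with a median of 0.04. PLG, plasminogen, had a ratio of 0.509, beside 0.592 for APOH.

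**Figure D5:**
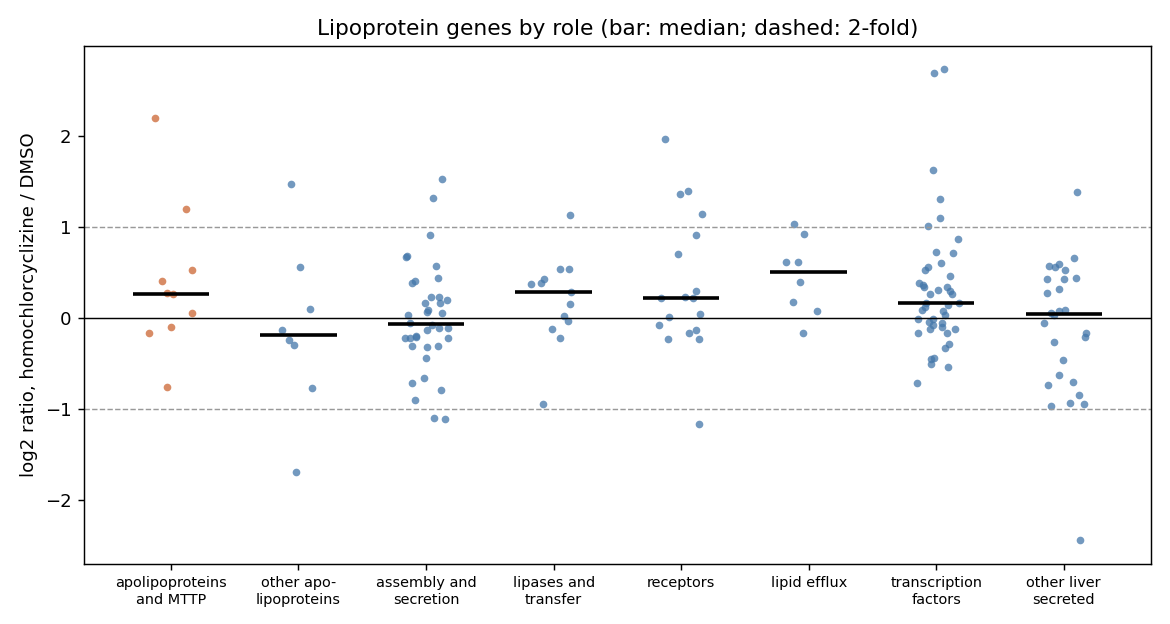
Log2 ratios, homochlorcyclizine over DMSO, of the tested genes of 8 lists, 1 point a gene (spread sideways at random for legibility), with list medians as bars and 2-fold as dashed lines. The median of the 10 genes is 0.26 and that of the assembly list -0.07. That of the list labelled lipid efflux, which also holds NPC1, NPC2, NPC1L1 and STARD3, is 0.50.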

How the data were processed

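Per the labels' protocols, poly(A) mRNA of 2 Huh7 cultures was sequenced, 1 per treatment. Raw counts per gene were deposited by the authors in 1 table for both libraries, and FPKM values in 1 table a library. The build was hg38, per the submitters' processing notes. Aligner, counting program, strand setting and annotation: not given in the sources used here. Columns were tied to samples through the labels.

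TMM factors were computed with edgeR 4.0.16 (R 4.3.3). Python 3.11.15 with scipy 1.17.1 gave ratios and intervals. Log2 ratios had a prior count of 1. A gene was called at 2-fold or more with an exact 95% Clopper-Pearson counting interval excluding 1, if its mean over both libraries reached 1 CPM. No test between conditions was possible. The script was tested on simulated data. Genes and lists were chosen with earlier results of these data known. Named genes are all 10 members, the 4 largest absolute log2 ratios of each list, and 12 fixed genes, though some genes of this rule are not reported here; APOC4, CDX1, FABP2, LPL, CETP, TOMM40, RELB, BUD13, ZPR1, SIK3, BAG6, FOXO1, FOXO3, APOBEC1, A1CF, CD163, MRC1, COL1A2, THY1, LRAT, KDR, TEK, CLEC4G, EMCN, ERG and CDH17 were named after their values were seen. Alternatives were other size factors (total counts, upper quartile, and size factors of DESeq2 1.42.0), the FPKM ratio, prior counts, filters, fold sizes and removal of trends on length and GC. Positions and promoters are RefSeq's (GRCh38.p14, which is hg38 with patches). Exon overlaps are from GENCODE 29. Protein sequences were not analysed here.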

Additional observations from a re-analysis of the deposited data

How the results depend on the processing

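Each group is 1 library, so none could be left out. No paired analysis was possible because each group holds 1 sample. APOA4 and APOE were called higher under 11 of the 12 alternatives, and at 3-fold the count was 1, APOA4. Of the 11, having no filter and the 1.5-fold rule could only keep these calls. The filter of 5 CPM leaves both ratios unchanged. No gene of the 10 was called lower except at 1.5-fold, where the count was 1, APOH. Over all genes, 1197 were called higher and 946 lower with no filter, 1736 and 1736 at 1.5-fold, and 192 and 201 at 3-fold. The median log2 ratio of the 10 genes was 0.41 with the trend on gene length removed and 0.38 with that on GC and length removed, an alternative chosen after seeing the data. Removal of the trend on length alone brought APOA1 to 0.06, the only change of sign among the 10 genes. With GC and length removed APOA1 was at -0.10. As shares of raw counts the 10 genes took 0.432% with DMSO and 0.559% with homochlorcyclizine, since that scale weights long mRNAs. Over all alternatives the log2 ratio ran from 2.15 to 2.30 for APOA4, from 1.09 to 1.33 for APOE and from -0.76 to -0.57 for APOH. Depth limits APOA4, at 101 counts with DMSO, and leaves APOA5 and APOC4 unresolved.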

Other observations

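Editing of APOB mRNA, which gives the short intestinal form of the protein, is done by the deaminase APOBEC1. A1CF is an RNA-binding partner of this enzyme. APOBEC1 was not detected, a count of 0 in each library that leaves room for 0.0785 CPM with DMSO and 0.0737 CPM with homochlorcyclizine. A1CF was at 126 CPM with homochlorcyclizine against 171 CPM with DMSO, a ratio of 0.738 (0.711 to 0.766). Editing itself cannot be read from counts per gene.

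Beside APOA2, the mitochondrial gene TOMM40L, 2.43 kb away, had a ratio of 0.666 (0.618 to 0.717), while APOA2 was at 1.04. Like TOMM40 beside APOE, it lies next to an apolipoprotein with a higher ratio, and it was picked after its value was seen.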
